A study of Mus musculus with 4 samples.

Results

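The insulin signalling components described here were the receptor Insr, the docking proteins Irs1 and Irs2, the phosphoinositide kinase genes Pik3r1 and Pik3c2g, the kinases Akt1 and Akt2, and the forkhead transcription factors Foxo1 and Foxo3. Members were all array probes, other than control spots, that carried one of these gene names in the scanner files. Of the 9 genes, 8 were found, with 21 probes on 30 spots of each array, among 26582 names, 41174 probes and 43379 spots in all. Irs2 was not analysed here.

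The RNA came from the liver of male C57BL/6 mice with diet-induced obesity (DIO mice, strain label C57BL/6J) and was set against control RNA on Agilent arrays of the whole mouse genome with 2 dyes. The mice were bought at 8 weeks of age, had 14 weeks of a high-fat diet and weighed at least 40 g. They received porcine GALP (1-60) (galanin-like peptide, a hypothalamic neuropeptide that regulates feeding), given as 1 nmol in saline with 5% α-cyclodextrin, or saline alone, as 2 µL into the nose once a day for 11 days. There were 3 pools of RNA, from the 4 mice given GALP that lost more weight, the 4 mice given GALP that lost less, and the 8 mice given saline (the control). Thus both GALP groups and the control shared the strain, the diet and the obesity, and the GALP mice had been divided by their own weight loss.

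Each GALP pool shared 2 arrays with the control, once labelled with Cy5 and once with Cy3, so that there were 4 arrays, all on 1 slide. All values below are log2 ratios of GALP over control unless a signal is named, and means ± SD are over n = 2 GALP pools, since both arrays of a pool hold identical extracts. The control was 1 pool of RNA, so the spread among control mice is missing from each SD and test, and differences between individual mice cannot be seen in pools. In the sample labels the control channel, too, has a weight loss group, whereas the methods describe a single control pool, which was followed here.

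Insulin binds a receptor tyrosine kinase on hepatocytes, which phosphorylates the insulin receptor substrates. These recruit class I phosphoinositide 3-kinase, the lipid product of which brings AKT to the membrane, where it is activated. Active AKT in turn phosphorylates FOXO1 and keeps it out of the nucleus, which lowers transcription of gluconeogenic genes in the liver, while the same pathway raises the transcription of lipid synthesis genes through SREBP1c. Most of this signalling runs through phosphorylation and localization of proteins, and the arrays measured mRNA alone.

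In the ratios as deposited, the most changed member was Pik3c2g, the catalytic subunit of a class II phosphoinositide 3-kinase found mainly in liver. This kinase acts on endosomes and is known for prolonging AKT2 activity there. With normexp and an offset of 50, which draws the ratios of dim probes towards 0, the most changed member was Foxo1, at 0.37. Pik3c2g is described first. It was below the control on all 4 arrays at both of its probes that gave a signal, but by different amounts, and 1 of them was called lower. The name was carried by 4 probes, all on the plus strand of chromosome 6 on mm9, and the first 30 of their 60 bases, copied from the scanner files, are shown because the result depends on which of them is read.
A_52_P564413 (NM_207683), chr6:139570930-139570989: tctcccccatcatcattcatcctactcaat
A_52_P402847 (ENSMUST00000191013.1), chr6:139794897-139794956: aaacattattttattttctgcttaaataaa
A_52_P78514 (ENSMUST00000187223.6), chr6:139810100-139810159: cccaaggttgcttaaggattccagagacta
A_51_P191077 (NM_207683), chr6:139917709-139917768: ttacagagtgttaccagcatagtagacaaa

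The letters are lower case throughout, as no base is marked. In the direction of the gene, the first probe lay 223.9 kb before the second, the second 15.1 kb before the third, and the third 107.5 kb before the fourth. By accession, the first and the fourth probes are assigned to the same RefSeq transcript, whereas the second and the third are assigned to other Ensembl transcripts. The scanner files name no exon or untranslated region for any of them, and none was assigned here. GC content over the full probes was 41.7%, 20%, 45% and 41.7% in the same order.

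At A_52_P78514, the processed signal (background-subtracted and dye-normalized brightness, in arbitrary units) was 62.3 with GALP and 169.6 in the control on the greater weight loss array with GALP in Cy5. On the dye-swapped array of that pool, it was 56.4 and 146.1. With less weight loss, it was 89.3 and 215.2 with GALP in Cy5, and 53.4 and 161.1 with GALP in Cy3. All 4 GALP signals lay below all 4 control signals. How many of all probes separate in this way was not counted, here or at the members below. By ratio alone, 16.0% of the 14445 probes well above background in all 8 channels were below 0 on all 4 arrays, and 11.8% above. The log2 ratios were -1.44, -1.37, -1.27 and -1.59 in the same order of arrays, with a mean of -1.42 ± 0.02 (SD, n = 2 pools), which is a GALP level of 0.374 times the control. The 95% confidence interval of the mean by limma was -1.5 to -1.34, and -1.59 to -1.25 when only probes with a signal on every array were fitted. Both rest on 2 pool means that lay close together, -1.41 and -1.43. The software error of the single ratios was 0.26 to 0.32.

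At A_51_P191077, the GALP and control signals were 235 and 369.8 on the greater weight loss array with GALP in Cy5, and 196.9 and 353.5 with the dyes exchanged. With less weight loss, they were 326.7 and 348.3 with GALP in Cy5, and 258.3 and 436 with GALP in Cy3. Here, too, every GALP signal was below every control signal, but the less weight loss array with GALP in Cy5 came close to no difference. The log2 ratios were -0.65, -0.84, -0.09 and -0.76, with a mean of -0.59 ± 0.23 (SD, n = 2 pools) and a 95% confidence interval by limma of -1.42 to 0.25, which includes 0. When limma was fitted on the probes with a signal on every array alone, the interval was -0.89 to -0.28.

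**Figure D1:**
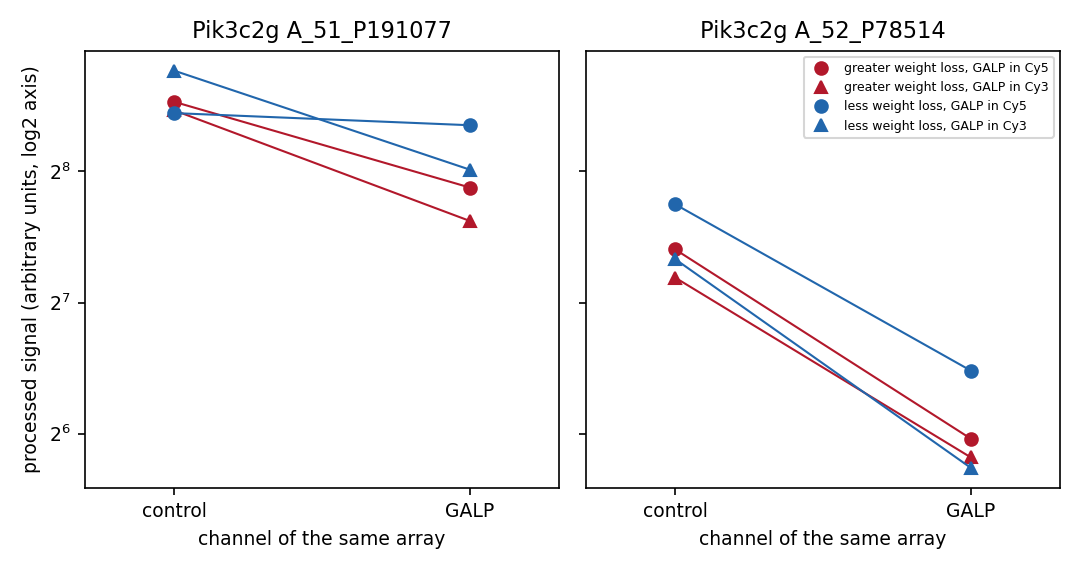
Processed signal of the Pik3c2g probes A_51_P191077 (left) and A_52_P78514 (right) in the control and the GALP channel of each array, on a log2 axis in arbitrary units; each line joins the channels of 1 array, red for greater and blue for less weight loss, with circles for GALP in Cy5 and triangles for GALP in Cy3. All lines fall to the right, and the line of the less weight loss array with GALP in Cy5 is nearly flat at A_51_P191077 (log2 ratio -0.09) and steep at A_52_P78514 (-1.27).

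These values were read against a rule built here, as a strict reading, from the p-value and fold thresholds of the study. A probe must point the same way on all 4 arrays, and each pool must pass a fold of 1.5 upwards or 0.75 downwards. On each array, the p-value of the scanner software (Feature Extraction) must be under 0.01. That p-value rests on an error model for the ratio of a single array. Of the 21 member probes, 1 was called lower, A_52_P78514, beside 0.132% of the 41037 probes tested, and 0 were called higher, beside 0.0585%. Its Feature Extraction p-values lay between 4.37e-07 and 7.36e-07. The study lists Pik3c2g among its most decreased genes from these same arrays, so this call is not independent evidence. A_51_P191077 missed the rule on 1 array, where the p-value was 0.658, and passed the threshold on the other three. When the p-value was asked for on at least 1 array of each pool, both Pik3c2g probes were lower, 2 of 21 member probes beside 0.407% of all probes.

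No member passed limma on the 2 pool ratios at an adjusted p under 0.05, and neither did any of the 41037 probes, with 1 residual degree of freedom. The smallest adjusted p was 0.374, which A_52_P78514 shared, and A_51_P191077 had 0.4998. Without adjustment, 2 member probes were under 0.05 and lower (6.6% of all probes) and 2 were under 0.05 and higher (4.99%). The lower ones were A_52_P78514 and Irs1 A_52_P171212, the latter well above background in no channel. Among the 15713 probes with a signal on every array, fitted alone, 4 member probes were under 0.05 and lower (12.9% of those probes) and 2 higher (8.77%). There, 1 probe passed at an adjusted p under 0.05 (0.00636%), which was no member, and A_52_P78514 had an adjusted p of 0.128. With 4 arrays in the fit and the pool as a random block, 1 member probe was called, A_52_P78514, at an adjusted p of 0.0359, but in that fit the dye swaps of a pool count as separate samples. By mean log2 ratio, A_52_P78514 ranked 49th and A_51_P191077 ranked 254th from the lowest of these 15713 probes.

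The disagreement between the Pik3c2g probes had the same sign on each array. The ratio at A_52_P78514 minus that at A_51_P191077 was -0.79 and -0.53 with greater weight loss, and -1.18 and -0.84 with less weight loss, GALP in Cy5 first. The error of these differences, combined from the errors that the software gives each ratio, was 0.36, 0.35, 0.33 and 0.39, so each was larger than its error. Averaged by pool, the difference was -0.83 ± 0.25 (SD, n = 2 pools).

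Among the 3035 named genes with 2 or more probes well above background in all 8 channels, the range between the probes of a gene had a median of 0.09, and 90% of the genes had a range up to 0.29. A range of at least 0.83, that of Pik3c2g, occurred at 5 genes (0.165%). The others were Fdps (1.37), Tpm1 (1.17), Car3 (1.01) and Ahnak (0.84). The disagreement at Pik3c2g was known when the members were chosen, so its place among these genes is a description. Within the set of members, the range was 0.39 at Pik3r1, 0.03 at Akt2 and 0.03 at Foxo1.

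**Figure D2:**
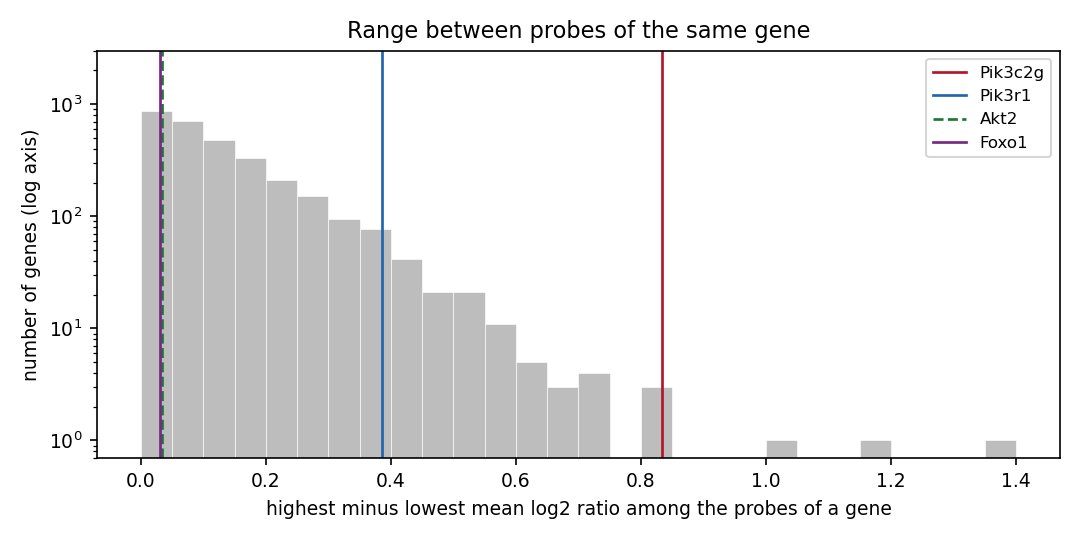
Number of genes (log axis) by the range between their probes, the highest minus the lowest mean log2 ratio, over 3035 genes with at least 2 probes well above background in all 8 channels; vertical lines mark 4 member genes. Pik3c2g (0.83) sits in the sparse right end, Pik3r1 (0.39) beyond the 90th percentile (0.29), and Akt2 and Foxo1 (both 0.03) at the left edge.

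The size of the disagreement depended on the background correction. Before dye normalization, the net brightness of A_52_P78514 over its local background was 4.86 to 17.4 scanner units in the GALP channels and 19.6 to 27.8 in the control channels. At A_51_P191077 it was 32.5 to 57.3 and 35.6 to 85.6. Normexp background correction, which adds an offset of 50 units to each signal, was also run, followed by loess. The mean log2 ratios became -0.33 at A_52_P78514 and -0.33 at A_51_P191077, and neither was called. For each call under normexp, the rule took the new ratios with the deposited p-values, which were not computed again. The offset is larger than the net brightness of A_52_P78514 in every channel, so it draws that ratio towards 0 by arithmetic. This setting therefore cannot show whether the probes differ. With an offset of 0, an alternative added after these values had been seen, they were -1.11 and -0.65, and A_52_P78514 was called. Both stayed below 0 in each of the 13 alternative settings tried, from -1.5 to -0.33 and from -0.80 to -0.33. As both were below 0 on every array, the settings that leave out an array, a dye orientation or a pool could not change the sign.

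The remaining Pik3c2g probes gave no level. A_52_P564413 and A_52_P402847 were not well above background in any channel. Log2 ratios of the former were 0.77, -1.40, 1.77 and -0.34, and followed the dye rather than the pool, and the latter was set to 0 by the software on all arrays. Therefore, the call on Pik3c2g rested on 1 probe, with 1 further probe in the same direction.

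**Figure D3:**
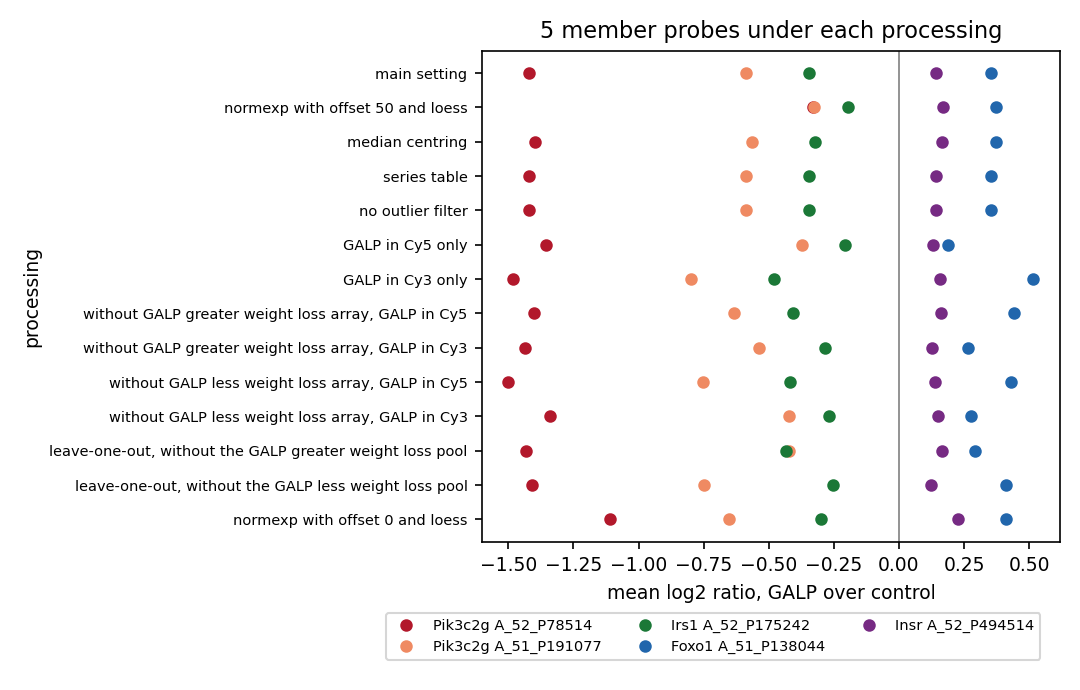
Mean log2 ratio of GALP over control for 5 member probes (colours) in the main setting and in 13 alternatives (rows). The Pik3c2g probes, at -1.42 and -0.59 in the main setting, fall on each other at -0.33 with a normexp offset of 50, whereas the Foxo1 probe stays between 0.19 and 0.52 and the Insr probe between 0.12 and 0.23.

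Insr encodes the receptor itself. Its probe A_52_P494514 (NM_001330056, chromosome 8, 3151667 to 3151726, minus strand) had log2 ratios of 0.09 and 0.16 with greater weight loss and 0.18 and 0.15 with less weight loss, GALP in Cy5 first. All were above 0 and small, with a mean of 0.14 ± 0.03 (SD, n = 2 pools), a level 10.5% above the control. The 95% confidence interval by limma was 0.02 to 0.27 (-0.03 to 0.32 in the fit of probes with a signal), the adjusted p was 0.414, and no array reached a Feature Extraction p-value under 0.01. A pair of further Insr probes, A_52_P6490 and A_52_P489068, was not well above background in any channel.

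Irs1 encodes a docking protein that couples the receptor to phosphoinositide 3-kinase. At A_52_P175242 (NM_010570, chromosome 1, 82229692 to 82229751, minus strand), the GALP signals were 767.2 and 670.5 against control signals of 839.5 and 870.1 with greater weight loss, and 728.4 and 617.7 against 887.6 and 926.1 with less weight loss. Every GALP signal was below every control signal. Log2 ratios were -0.13, -0.38, -0.29 and -0.58, with a mean of -0.34 ± 0.13 (SD, n = 2 pools), which is 0.788 times the control. The confidence interval by limma ran from -0.81 to 0.12 (-0.57 to -0.12 in the fit of probes with a signal) and the adjusted p was 0.491. One array passed the Feature Extraction threshold, that of less weight loss with GALP in Cy3, and Irs1 was not called.

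The other Irs1 probe, A_52_P171212, was not well above background in any channel. Its ratios of -0.09, -1.81, -1.05 and -1.37 gave a mean under the fold threshold in both pools, so that without the p-value 3 of 21 member probes were lower (0.877% of all probes), this one and those of Pik3c2g. A ratio of signals at background has no size, and no level of Irs1 was read from it.

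Pik3r1 encodes the p85α regulatory subunit of class I phosphoinositide 3-kinase. Its 4 probes on chromosome 13, all assigned to NM_001077495 and all well above background, did not share a direction. A_51_P511236 (102454406 to 102454465) had a mean of 0.18 ± 0.14, A_52_P407239 (102456208 to 102456267) of 0.02 ± 0.10, A_52_P235476 (102451558 to 102451617) of -0.10 ± 0.03, and A_52_P307938 of -0.21 ± 0.07 (SD, n = 2 pools). The bases of the last probe span 1043 bases of the genome (102459406 to 102460448), so that it crosses a splice junction. With normexp and an offset of 50, A_52_P235476 went to 0.01, on the other side of 0.

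At A_52_P307938 the ratios were -0.47 and -0.49 with GALP in Cy5, and -0.05 and 0.18 with GALP in Cy3, so the arrays divided by dye more than by pool. Divided in the same way, A_52_P407239 had 0.07 and 0.38 with GALP in Cy5, and -0.18 and -0.21 with GALP in Cy3. None of the Pik3r1 probes had a ratio on the same side of 0 on all 4 arrays, none passed the Feature Extraction threshold on any array, and their confidence intervals by limma, which reached from -0.48 to 0.69 in all, included 0. In the fit of probes with a signal, that of A_52_P307938 did not (-0.40 to -0.02, adjusted p 0.212).

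AKT1 and AKT2 are the serine and threonine kinases at the centre of the pathway, AKT2 being the main form in insulin action on liver. Akt1 probe A_51_P237553 (NM_009652, chromosome 12, 113892079 to 113892138, minus strand) is printed on each array as 10 spots, and the SD between spots of 1 array was 0.04 to 0.06. Log2 ratios of this probe were 0.08, 0.04, -0.08 and 0.14, with a mean of 0.04 ± 0.02 (SD, n = 2 pools). The confidence interval by limma was -0.05 to 0.14, and -0.13 to 0.22 in the fit of probes with a signal. The second Akt1 probe, A_52_P418014, was well above background in 1 GALP and 1 control channel of a single array and gave no level.

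Akt2 was measured by a pair of probes on chromosome 7 (NM_007434, plus strand). A_52_P2977 (28423859 to 28423918) had ratios of 0.03, -0.01, -0.18 and 0.11, with a mean of -0.01 ± 0.03 and an interval of -0.14 to 0.11. A_51_P408044 (28421973 to 28422113, across a splice junction) had 0.23, -0.14, 0.02 and -0.03, with a mean of 0.02 ± 0.04 and an interval of -0.13 to 0.17. The probes lay on either side of 0 and differed by less than the error of the software on each array, and a p-value above the threshold does not show that the Akt2 level was the same.

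Foxo1 is the forkhead factor that AKT holds outside the nucleus. At A_51_P138044 (NM_019739, chromosome 3, 52150183 to 52150242, plus strand), the GALP signals were 3158 and 3000 against control signals of 2682 and 1995 with greater weight loss, and 2779 and 3201 against 2522 and 2352 with less weight loss, GALP in Cy5 first. Every GALP signal was above every control signal. Log2 ratios were 0.24, 0.59, 0.14 and 0.44, with a mean of 0.35 ± 0.08 (SD, n = 2 pools), a level 27.6% above the control. The interval by limma was 0.04 to 0.66 with an adjusted p of 0.419.

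Foxo1 probe A_52_P453884 (52153289 to 52153348) repeated the values closely, with 0.30, 0.50, 0.10 and 0.38 and a mean of 0.32 ± 0.11 (SD, n = 2 pools). Its interval by limma was -0.09 to 0.74, which includes 0, with an adjusted p of 0.481 (0.11 to 0.53 in the fit of probes with a signal). Both probes had larger ratios with GALP in Cy3 than with GALP in Cy5 in either pool. A_51_P138044 met the p-value threshold of the rule on 1 array and A_52_P453884 on 0 arrays, their folds stayed under 1.5 in both pools, and neither was called. Averaged over dyes, the ratios of the probes were 0.41 and 0.40 in the greater weight loss pool, and 0.29 and 0.24 in the less weight loss pool.

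Foxo3, a related forkhead factor, was not measured. Probe A_51_P145507 was well above background in 1 GALP and 1 control channel, both on the less weight loss array with GALP in Cy3, where the ratio was 0.26, and A_52_P373852 in none.

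Counted over the 13 member probes (7 genes) that were well above background in all 8 channels, 3 were below 0 on all 4 arrays (both of Pik3c2g and 1 of Irs1) beside 16.0% of the 14445 such probes. Another 3 were above 0 on all 4 arrays (Insr and both of Foxo1) beside 11.8%. Over all 21 probes, with those at background, the counts were 4 below (6.63% of 41037) and 3 above (5.33%). The median of the 13 was 0.02, beside -0.02 for all such probes, and 7 of them lay within 0.2 of 0. Of the other 8 member probes, 6 were well above background in no channel and 2 in some.

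**Figure D4:**
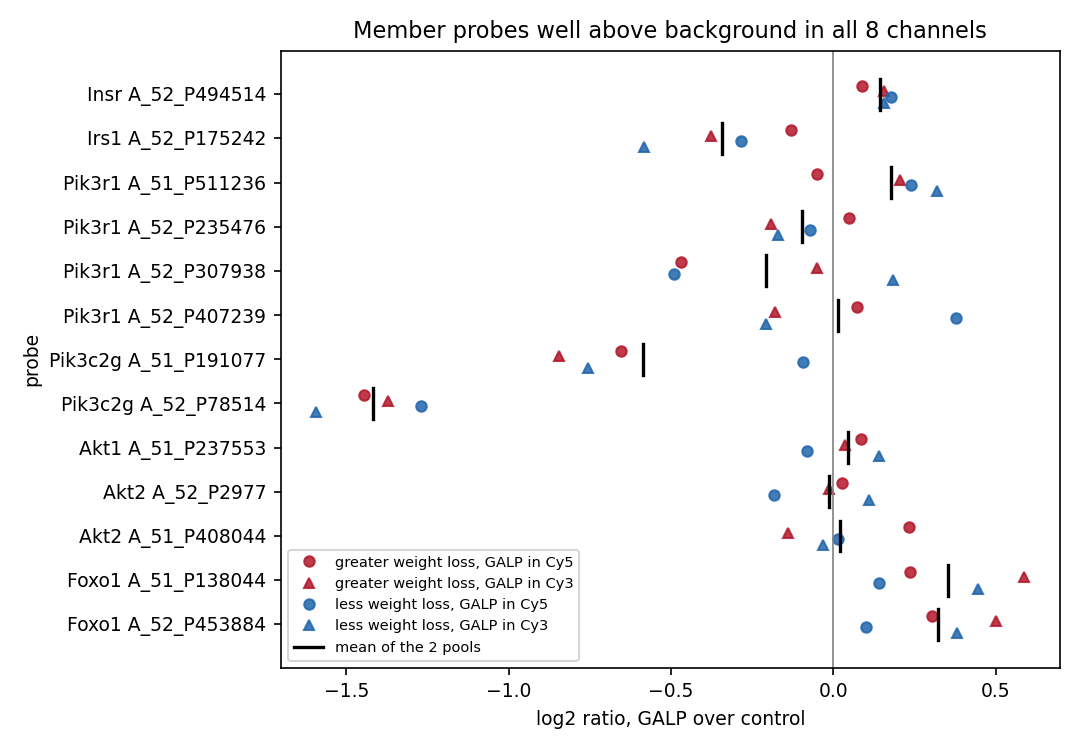
Log2 ratio of GALP over control on each of the 4 arrays (points; red for greater and blue for less weight loss, circles for GALP in Cy5 and triangles for GALP in Cy3) and the mean of the 2 pools (black bars) for the 13 member probes well above background in all 8 channels. Pik3c2g and Irs1 lie left of 0 and Foxo1 and Insr right of 0 on every array, while Pik3r1, Akt1 and Akt2 scatter around 0.

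The members were set beside the rest of the pathway, with each gene read at its brightest probe and counted as having a signal where every array had this probe well above background in 1 channel or both. Over all 86 pathway genes with a probe, members included, 2 had a probe called lower, Pik3c2g and Fasn (0.189% of 26518 names), and 0 had a probe called higher (0.083%). The study names both genes as decreased on these arrays, so the count is not independent evidence. For comparison, the median of the 11396 named genes with a signal was -0.01, 14.5% of them were below 0 on all 4 arrays and 12.8% above.

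Upstream of AKT, the lists centred near 0. The median was 0.06 for 9 genes of the receptor and its substrates, with 1 gene below 0 on all 4 arrays (Irs1) and 1 above (Insr). It was -0.02 for 9 phosphoinositide 3-kinase genes, with Pik3c2g below 0 on all arrays and Pik3cb, a class I catalytic subunit, above (mean 0.10 ± 0.08). Pik3r3, another class I regulatory subunit, had a mean of -0.46 ± 0.13 (SD, n = 2 pools) and was below 0 on 3 of 4 arrays. Gab1, a docking protein like Irs1, had 0.37 ± 0.19, with values of 1.16 and 0.63 where GALP was in Cy5 and of -0.14 and -0.16 where it was in Cy3.

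For 15 phosphatases and inhibitors, the median was 0.02, with 0 genes below and 2 above 0 on all 4 arrays. These were Inpp5d (SHIP1, a lipid phosphatase of blood cells, 0.37 ± 0.19) and Inppl1 (SHIP2, 0.15 ± 0.03). For 20 kinases downstream, the median was -0.02, with 3 below and 1 above. Sgk2, a kinase related to AKT, was the lowest at -0.41 ± 0.11.

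Target genes of the pathway were read in the same way. Of 8 genes that insulin induces in liver, 7 were below 0 on all 4 arrays (87.5%, beside 14.5% of named genes), with a median of -0.36. The study names Fasn and Me1 from these arrays, so the list is not independent evidence of its direction. Fasn, fatty acid synthase, was called lower at A_52_P100252 (-0.88 ± 0.37) and had -0.81 ± 0.33 at its other probe. Others were Acly (-0.60 ± 0.20) and Me1 (-0.41 ± 0.07), which supply lipid synthesis with acetyl-CoA and NADPH, Srebf1 (-0.38 ± 0.18), which encodes SREBP1, and Elovl6 (-0.35 ± 0.26), a fatty acid elongase, none of them called. Summed over the list, the signal was 46130 to 59250 in the GALP channels and 76210 to 78720 in the control channels.

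Of 10 genes that FOXO1 induces in liver, 5 were below 0 on all 4 arrays and 1 above, with a median of -0.11 that was 0.02 in the greater weight loss pool and -0.14 in the less weight loss pool. G6pc, the glucose-6-phosphatase catalytic subunit, had -0.41 ± 0.03, and Ppargc1a, a coactivator of gluconeogenic genes, had -0.28 ± 0.01. Igfbp1, an insulin-repressed binding protein of insulin-like growth factors, had 0.11 ± 0.09. Bcl6, a transcriptional repressor, had 0.16 in the greater weight loss pool and -1.15 in the less weight loss pool, a difference that was not tested, as each pool is 1 sample. None of these genes was called.

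**Figure D5:**
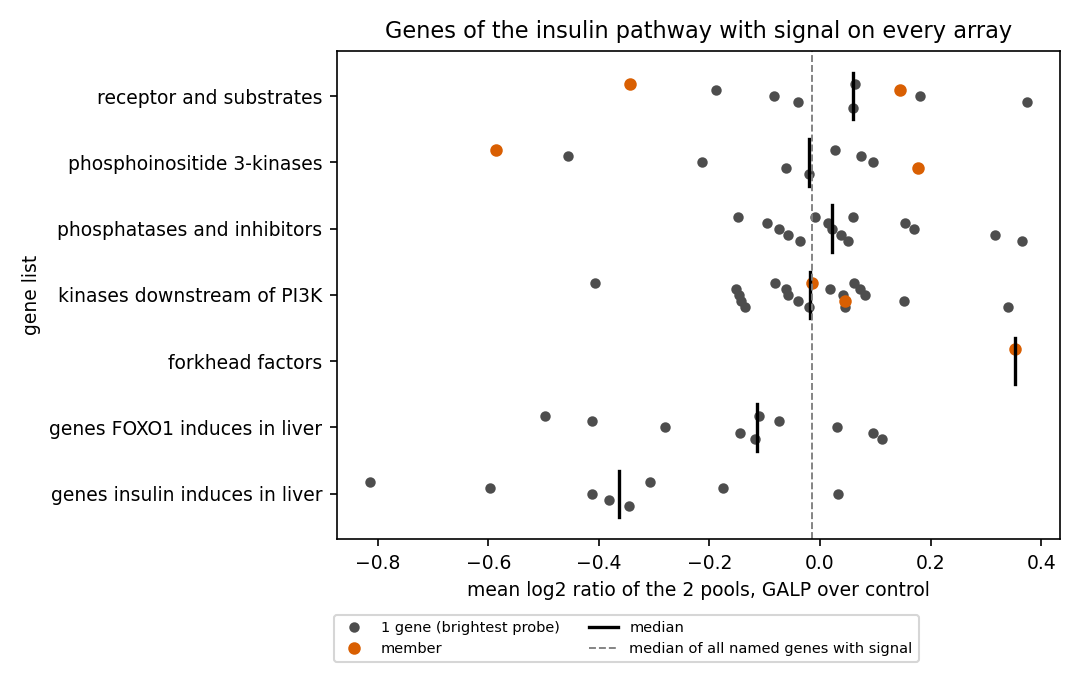
Mean log2 ratio of GALP over control (2 pools) of each pathway gene with a signal on every array, at its brightest probe, in 7 lists; members are orange, black bars are list medians, and the dashed line is the median of all named genes with a signal (-0.01). The lists from the receptor to the kinases centre near 0, and the list of genes that insulin induces lies to the left, with a median of -0.36.

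The arrays carried the markers of liver tissue, with 8 of 8 hepatocyte markers well above background in all channels and a median of 0.03. Markers of other tissues separated the pools. Of the pancreas and gut markers, the 4 genes with a signal were Ins2, Pnlip, Cela3b and Prss2, all of pancreas. Their median was -3.96 in the greater weight loss pool and 0.90 in the less weight loss pool. Gcg and Vil1 were well above background in no channel, and the gut marker Muc2 in 1 GALP and 1 control channel at its brightest probe. The signal summed over the list was 3771 to 4666 and 77160 to 87820 in the GALP channels of these pools, against 41990 to 55760 in the control. Skeletal muscle markers had medians of 0.48 and -2.43 over 4 genes. Pik3c2g A_52_P78514 had -1.41 and -1.43, and Foxo1 A_51_P138044 had 0.41 and 0.29, in the same pools. Pik3c2g A_51_P191077 had -0.75 and -0.42, and Irs1 A_52_P175242 had -0.25 and -0.43. The part of these markers in the members' values was not tested.

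Immune cell markers, none of them called, had medians of 0.49 and 0.41 in the pools over 4 of 7 genes with a signal, and summed signals of 9615 to 10810 in the GALP channels against 8462 to 9364 in the control. Ptprc (0.47 ± 0.12), Cd68 (0.55 ± 0.17) and Adgre1 (0.43 ± 0.01) were above 0 on all 4 arrays, whereas Clec4f, a Kupffer cell marker, had 0.00 ± 0.16, and Itgam was in no channel. Over 7 of 8 endothelial and stellate cell markers with a signal, the median was 0.08, and the summed signals were 5588 to 5887 in the GALP channels against 5308 to 5458 in the control. Among them, Col1a1, a collagen of activated stellate cells, had 0.66 ± 0.23 and was the only gene above 0 on all 4 arrays at its brightest probe. Kdr (-0.12 ± 0.02) was the only one below 0 on all 4 arrays, and Rgs5 (-0.22 ± 0.03) was the lowest of them, again at the brightest probe. The other Rgs5 probe had 0.21 ± 0.12 and was above 0 on all 4 arrays, so the direction of Rgs5 depended on the probe. Over 3 of 4 bile duct markers with a signal, the median was -0.14. The ratios of Foxo1 and Inpp5d were above 0 like those of Ptprc, Cd68, Adgre1 and Col1a1, and smaller, and the part of these cells in their values was not tested. In bulk tissue, fewer cells of a type and less RNA per cell cannot be told apart.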

How the data were processed

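Liver RNA pools were hybridised on 4 dual-colour arrays of 1 slide. The authors took the processed intensity of each channel from Feature Extraction (version 12.0.3.1 in the file headers), with the background removed and the dyes balanced by LOWESS. The labels and the paper name other versions. The deposited log10 ratio is Cy5 over Cy3. In the scanner files it was 0 on 29.6% to 35.3% of the spots of an array, but not at every probe that lacked a signal well above background. The deposited p-value comes from the error model of 1 array. Error of the log ratio, deposited beside it, is from the same model.

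Ratios were put on the log2 scale with GALP as the numerator, outlier spots as marked by the software (232 to 319 on an array) were dropped, and spots of a probe, then arrays of a pool, were averaged. No spot was saturated, and 40.5% to 46.7% of spots were well above background in a channel. The number of arrays, and of the pools on them, limits the precision. The methods give the p-value threshold of 0.01 and the selection of changes common to both groups. Applying the threshold on all 4 arrays was a strict reading made here. With it, 24 of all probes were called higher, fewer than the increased genes that the study reports. Pool ratios were tested with limma 3.58.1 (lmFit, eBayes; R 4.3.3) against 0, n = 2, with Benjamini-Hochberg adjustment over 41037 probes.

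Named were all member probes, every pathway gene with a called probe, the 10 pathway genes with the largest change at a probe well above background in all 8 channels, and the 5 probes most like the called member. Pik3cb, Inppl1, Ppargc1a, Igfbp1 and the named markers were chosen after their values were seen, to name the members of small counts or the exceptions in a list. Members, lists and tests were chosen with earlier results of these data known, the Pik3c2g values included. Accessions of 17 of the 21 probes matched a RefSeq table, each with the same symbol. Alternatives were normexp with loess, median centring, the deposited series table, no outlier filter, each dye orientation, array and pool left out, other p and fold rules, a signal filter, an intensity trend and the pool as a random block. Normexp with an offset of 0 was added after values had been seen. Under every other processing, calls by the rule kept the deposited p-values. Python 3.11.15 with numpy 2.4.6, pandas 2.3.3 and matplotlib 3.10.9 was used.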

Additional observations from a re-analysis of the deposited data

How the results depend on the processing

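No paired analysis was possible because the labels number no replicates and the arrays of a pool are dye swaps of the same extracts. Member probes called lower numbered 1. With normexp (offset 50) and loess they numbered 0, with GALP in Cy3 only 2, with the p-value asked for on at least 1 array of each pool 2, and with no p-value 3. Leaving out an array or a pool gave 1 to 2, with 2 without the less weight loss array with GALP in Cy5 and 2 without the less weight loss pool, where A_51_P191077 joined A_52_P78514. Pathway genes called numbered 2. The same 4 settings gave 0, 4, 4 and 5, and leaving out an array or a pool gave 2 to 5, with 5 without the greater weight loss pool. Limma called 0 member probes, 1 with the pool as a random block (consensus correlation of its arrays -0.39) and 4 at an unadjusted p under 0.05. Among these 4 was Irs1 A_52_P171212, which was well above background in no channel. The smallest adjusted p of a member probe in limma ranged from 0.0359 to 0.672 over the settings. Member probes called higher numbered 0 in all settings run. The counts were unmoved by median centring, the series table, the absence of the outlier filter and the absence of the fold. The cause of each shift was not tested.

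Of the 13 member probes well above background in all 8 channels, 6 changed sign in 19 of their settings, none of them called. With normexp (offset 50 or 0), Pik3r1 A_52_P235476 went to 0.01 and 0.00, and Akt2 A_52_P2977 to 0.02 and 0.01. Other changes were at Pik3r1 A_52_P307938 (0.07 with GALP in Cy3 only), Pik3r1 A_52_P407239 (-0.19 to 0.00 where below 0), Akt1 A_51_P237553 (-0.01 without the less weight loss array with GALP in Cy3), Akt2 A_52_P2977 (0.01 to 0.06 where above 0) and Akt2 A_51_P408044 (-0.09 to -0.01 where below 0). Both Pik3c2g, both Foxo1, the Insr and the Irs1 probe kept their direction in 13 of 13 settings, as did Pik3r1 A_51_P511236. All but the last had the same sign on all 4 arrays. For these, the settings that leave out an array, a dye orientation or a pool could not change the sign.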

Other observations

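The probes with the pattern most like Pik3c2g A_52_P78514 were sought among 13886 probes of other named genes well above background in all 8 channels, by the Euclidean distance between the log2 ratios of the 4 arrays. The nearest were Gpam (distance 0.55), which encodes the first enzyme of glycerolipid synthesis, Slc30a10 (0.62), a manganese exporter, Fdps (0.62), farnesyl diphosphate synthase of the mevalonate pathway, Elovl3 (0.77), a fatty acid elongase, and a second Slc30a10 probe (0.80). Gpam had -1.06, -1.20, -1.08 and -1.29 in the order greater weight loss with GALP in Cy5 and in Cy3, then less weight loss with GALP in Cy5 and in Cy3. All 5 probes were below 0 on every array, as the measure of likeness requires of near neighbours. The likeness is over 4 arrays of 2 pools that share 1 control pool, and it is a description.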
